A study of Homo sapiens with 24 samples.

Results

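The 10 genes described here encode histone lysine demethylases that use molecular oxygen as a substrate. They are KDM2A, KDM2B, KDM3A, KDM3B, KDM4A, KDM4B, KDM4C, KDM5A, KDM5B and KDM6B. They were picked by gene symbol and make up 10 of the 65180 gene IDs in the count table. All 10 passed the filter on low counts. The cells were HK-2, an immortalised human proximal tubular epithelial line, deprived of serum overnight and then incubated for 24 h. Hypoxia meant 0.3% oxygen. BAY stands for BAY 60-2770, which switches on soluble guanylate cyclase and so the synthesis of cyclic GMP. The labels give its concentration as 1 mM, which is doubtful because it is far above the range usual in culture. TGF-β1, a cytokine that drives fibrotic programmes in kidney epithelium, was given at 2 ng/mL.

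The 24 libraries form 6 groups of this 1 cell line. Hypoxic cells received BAY (3 libraries) or solvent (3 libraries). Normoxic cells received TGF-β1 with BAY (5 libraries), TGF-β1 alone (5 libraries), BAY alone (3 libraries) or solvent (5 libraries). The solvent libraries are the controls of both experiments, so comparisons against them share those libraries. The RNA numbers in the sample titles run from 1 to 18 in normoxic libraries, from 21 to 23 in hypoxic libraries with BAY and from 31 to 33 in hypoxic libraries with solvent. Oxygen and this numbering cannot be told apart.

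Libraries held 78862528 to 105571250 counts. Levels are given as CPM, counts per 1e+06 counts of a library, scaled by the TMM method over all 24 libraries. CA9, a gene induced by hypoxia, averaged 8.98 ± 0.21 CPM in hypoxic cells and 0.0707 ± 0.026 CPM in normoxic solvent cells (SD, n = 3 and 5). Of 14 markers fixed for this line, PAX8, KRT8, KRT18, EPCAM and VIM had medians of 264 to 1110 CPM, while LRP2, CUBN, AQP1 and ANPEP, which mark the differentiated proximal tubule, had medians below 1 CPM. Endothelial markers summed to 0.341 to 3.45 CPM and leukocyte markers to at most 0.128 CPM. Fewer cells of a type and less RNA per cell cannot be told apart in such bulk RNA. Within the 3 normoxic groups of 5 libraries, a first principal component (47.7% of the variance around group means) split the libraries into 2 subsets. Subset 1 held solvent replicates 1, 2 and 5 and replicates 1 and 2 of both TGF-β1 groups. Subset 2 held the others. No label gives a reason for this split, and KDM3A, KDM4B, KDM4C and KDM6B differ across it.

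Jumonji-C demethylases remove methyl groups from histone lysines in a reaction that consumes oxygen and 2-oxoglutarate, needs ferrous iron and releases succinate and formaldehyde. Low oxygen, succinate and fumarate can slow them. KDM2A and KDM2B act on H3K36, KDM3A and KDM3B on H3K9, and the KDM4 enzymes on H3K9 and H3K36. KDM5A and KDM5B act on H3K4 and KDM6B on H3K27. KDM3A and KDM4B are known from other cells as targets of the hypoxia-inducible factors, which bind the motif ACGTG or GCGTG. The measurements here are of RNA, not of enzyme activity or histone marks.

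The promoters of paralogs that changed unequally in hypoxia are shown first, from RefSeq on GRCh38.p14, 5′ to 3′ on the gene's strand, with ACGTG or GCGTG on either strand in capitals. The stretches of KDM4B (chr19:4968993-4969112), KDM4A (chr1:43650029-43650148) and KDM3B (chr5:138352476-138352595) lie before the annotated start and outside annotated exons. For KDM3A (chr2:86441332-86441361) and KDM4C (chr9:6757898-6757927 and chr9:6757930-6757959), whose upstream bases overlap annotated exons, the 30 bases around a match are given.
KDM4B promoter: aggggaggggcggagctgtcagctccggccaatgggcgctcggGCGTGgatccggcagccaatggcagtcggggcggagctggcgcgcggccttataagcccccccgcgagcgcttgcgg
KDM4A promoter: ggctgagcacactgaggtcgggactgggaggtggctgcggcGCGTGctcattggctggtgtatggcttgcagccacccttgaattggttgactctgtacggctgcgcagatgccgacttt
KDM3A site: tccgggaggctgtGCGTGtcttgtgagagc
KDM3B promoter: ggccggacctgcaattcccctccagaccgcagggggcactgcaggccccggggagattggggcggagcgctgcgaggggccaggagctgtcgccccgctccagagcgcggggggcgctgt
KDM4C site 1: tgtttgtaagccCACGTGactcaccaagtg
KDM4C site 2: ggccccagcggtCACGTGacggcgcgcgcg
The letters CACGTG hold ACGTG on both strands, so the 2 matches overlap. RefSeq lists 16 starts for the 10 genes. In the 250 bases before the start, 12 of these 16 promoters (75.0%) held either motif, against 43.2% of 35116 promoters in the table. Some genes give more than 1 of the 16, and the KDM3A windows overlap and share the same match. The 16 are therefore not independent. ACGTG, with or without GCGTG, stood in 2 of 16 (12.5%), those of KDM4B and KDM4C, against 18.5% of all promoters. In KDM4B it lies 241 bases before the start, outside the stretch printed above. KDM4A, which fell in hypoxia, also holds a match, and no match was found in the KDM3B window. GC content of the 16 windows ran from 50.4% to 83.6% and was not matched in this comparison. A match is a run of letters and not a measured binding site.

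Hypoxia in solvent raised 8 of the 10 demethylases and lowered 1, KDM4A. Across the 21316 genes tested, 29.2% were called higher and 31.6% lower, where a call is an adjusted p below 0.05 in edgeR's quasi-likelihood test (2-sided, Benjamini-Hochberg over all tested genes). Of the 10, KDM3A, KDM4B, KDM4C and KDM6B were called and at least 2-fold higher, against 6.79% of all genes. Podocyte markers moved with hypoxia, summing to 449 to 482 CPM in hypoxic cells, against 67.9 to 89.0 CPM in solvent cells. SYNPO carried this sum, and the part of these markers in the demethylase values was not tested. The median log2 fold change was 0.69 over the 10 and -0.02 over all tested genes. Fold changes below are log2 values with an approximate SE, and every adjusted p for a gene comes from this test.

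KDM3A, which removes mono- and dimethylation of H3K9, stood at 215, 206 and 224 CPM in hypoxic cells, against 78.3, 80.2, 76.1, 73.7 and 79.3 CPM in normoxic solvent cells. The groups were far apart, and the log2 fold change was 1.46 (SE 0.034, adjusted p = 3.75e-14). Its paralog KDM3B stood at 173, 172 and 158 CPM in hypoxic cells, against 164, 160, 156, 153 and 158 CPM in solvent cells. These ranges overlap, and KDM3B was not called (0.07, SE 0.036, adjusted p = 0.104). Hypoxic replicate 3 was the lowest of its group, and without it KDM3B was called at 0.11 (adjusted p = 0.0151).

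The KDM4 paralogs went in opposite directions. KDM4B, which acts on trimethylated H3K9 and H3K36, stood at 103, 102 and 100 CPM in hypoxic cells, against 39.8, 39.5, 35.5, 35.97 and 40.5 CPM in solvent cells (1.39, SE 0.038, adjusted p = 1.77e-13). KDM4C, with the same substrates, stood at 46.4, 46.2 and 44.2 CPM in hypoxic cells, against 20.6, 19.9, 17.6, 17.3 and 18.8 CPM in solvent cells (1.26, SE 0.052, adjusted p = 1.21e-11). Every hypoxic library was more than 2-fold above every solvent library for both genes. KDM4A fell to 66.3, 69.5 and 63.7 CPM in hypoxic cells, against 88.2, 87.8, 85.9, 82.7 and 89.1 CPM in solvent cells (-0.40, SE 0.041, adjusted p = 4.28e-07). With solvent libraries of subset 1 or of subset 2 as the only controls, KDM4B was at 1.35 or 1.51, KDM4C at 1.21 or 1.38 and KDM4A at -0.41 or -0.34, all called.

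**Figure D1:**
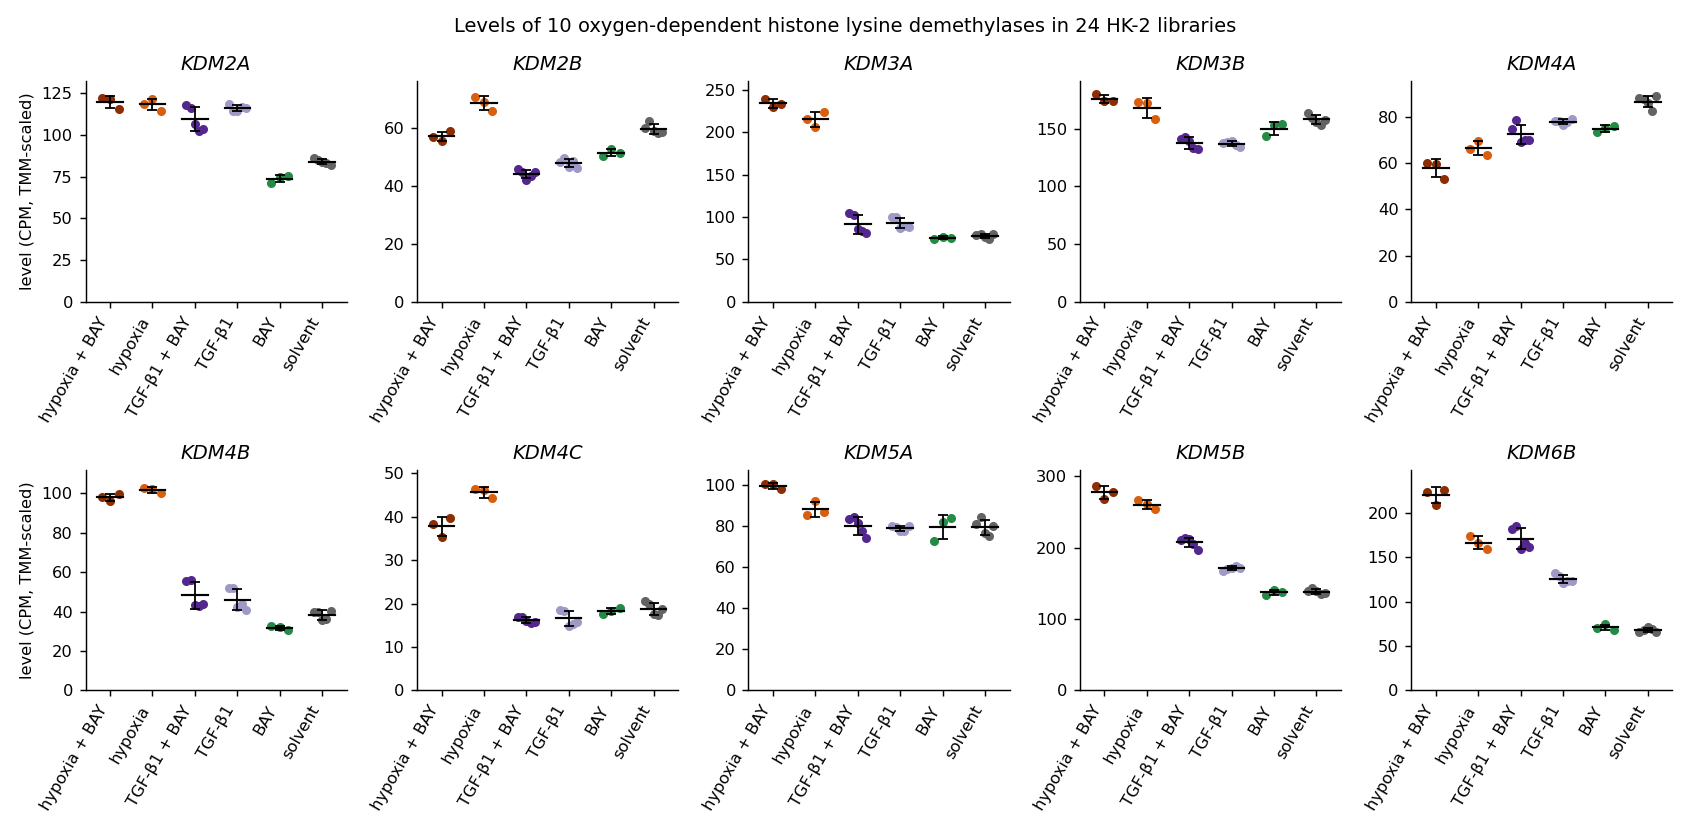
Level of each of the 10 demethylases in CPM (vertical axis, from 0) by group, 1 point per library, with the mean and SD as bars. KDM3A, KDM4B and KDM4C are high in both hypoxic groups, KDM4A is lowest there, and KDM6B and KDM5B are also raised by TGF-β1, further with BAY.

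KDM6B, which removes H3K27 trimethylation, stood at 174, 167 and 159 CPM in hypoxic cells, against 66.4, 68.2, 71.6, 69.8 and 65.4 CPM in solvent cells (1.27, SE 0.045, adjusted p = 2.62e-12). KDM5B, an H3K4 demethylase, stood at 266, 261 and 254 CPM in hypoxic cells, against 140, 143, 139, 135 and 136 CPM in solvent cells (0.89, SE 0.032, adjusted p = 3.32e-12). Both genes were separated between the groups by more than the spread of either. KDM5A is a paralog of KDM5B that also acts on H3K4. It stood at 85.4, 92.1 and 86.8 CPM in hypoxic cells, against 81.2, 84.3, 76.3, 75.2 and 80.1 CPM in solvent cells. Its rise was small (0.13, SE 0.046, adjusted p = 0.0206) and the call did not hold without hypoxic replicate 2 (0.11, adjusted p = 0.0831) or with total counts (0.06, adjusted p = 0.246). KDM2A, an H3K36 demethylase that binds unmethylated CpG, stood at 119, 121 and 114 CPM in hypoxic cells, against 86.0, 85.0, 83.7, 83.3 and 81.8 CPM in solvent cells (0.48, SE 0.033, adjusted p = 4.48e-09). KDM2B, the CpG-binding subunit of a Polycomb complex, stood at 70.9, 69.2 and 65.9 CPM in hypoxic cells, against 60.1, 62.3, 58.8, 58.2 and 58.7 CPM in solvent cells (0.19, SE 0.035, adjusted p = 0.000208).

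In cells that also received BAY, hypoxia raised 9 of the 10 genes and lowered 1, against 28.4% higher and 32.6% lower of all genes tested, and the same 4 genes were called and at least 2-fold higher, against 6.87%. KDM3A stood at 239, 229 and 233 CPM in hypoxia with BAY, against 73.5, 76.8 and 75.8 CPM in normoxia with BAY (1.60, SE 0.040, adjusted p = 7.05e-14). KDM4B (1.59), KDM6B (1.59) and KDM4C (1.01) rose by 2-fold or more as well, and KDM4A fell by 0.41. KDM3B rose by 0.19 (SE 0.041, adjusted p = 0.000641). KDM2B rose by 0.11 (adjusted p = 0.0193), a call that did not hold without hypoxic BAY replicate 3 (0.09, adjusted p = 0.0731) and whose sign turned to -0.04 (adjusted p = 0.409) with scaling by total counts. With total counts KDM3B was at 0.04 and lost its call (adjusted p = 0.469). Scaling by total counts in place of TMM moved the median log2 fold change of all genes to -0.2 here (TMM -0.0484), to -0.169 for TGF-β1 (TMM -0.0414) and to -0.238 for TGF-β1 with BAY (TMM -0.0404). All changes are therefore given relative to the TMM scale. Podocyte markers summed to 1223 to 1350.2 CPM in hypoxia with BAY, against 101 to 106 CPM in normoxia with BAY, and their part was not tested.

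Per kilobase of the longest coding transcript in GENCODE 29, the level of KDM3B was the highest of the 10 in normoxic solvent cells, at 23.2 CPM per kb, followed by KDM4A at 19.4 and KDM3A at 15.7. KDM4B and KDM4C were lowest, at 6.71 and 4.05 CPM per kb. In hypoxic cells KDM3A was first, at 43.6 CPM per kb, followed by KDM5B at 25.2, KDM6B at 24.8 and KDM3B at 24.6, values that lie too close to be ordered. The values depend on which transcript each gene makes, which was not measured.

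Ratios of paralog counts within a library do not depend on the scaling between libraries. They were computed after seeing the data, for 5 pairs and 7 comparisons, with an exact permutation test on the log2 ratios and Benjamini-Hochberg adjustment over the 35 tests. In hypoxic cells the KDM4B to KDM4A ratio was 1.53 ± 0.053, against 0.441 ± 0.017 in solvent cells (SD, n = 3 and 5). The KDM4C to KDM4A ratio was 0.686 ± 0.019 in hypoxic cells and 0.217 ± 0.012 in solvent cells. The KDM3A to KDM3B ratio was 1.29 ± 0.12 in hypoxic cells and 0.491 ± 0.012 in solvent cells, and the KDM5B to KDM5A ratio was 2.96 ± 0.15 in hypoxic cells and 1.75 ± 0.056 in solvent cells. The KDM2A to KDM2B ratio was 1.72 ± 0.041 in hypoxic cells and 1.41 ± 0.029 in solvent cells. No hypoxic library overlapped a solvent library in any of the 5 ratios, and each reached the smallest exact p that 3 against 5 libraries allow, 0.0179 (adjusted p = 0.0418).

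**Figure D2:**
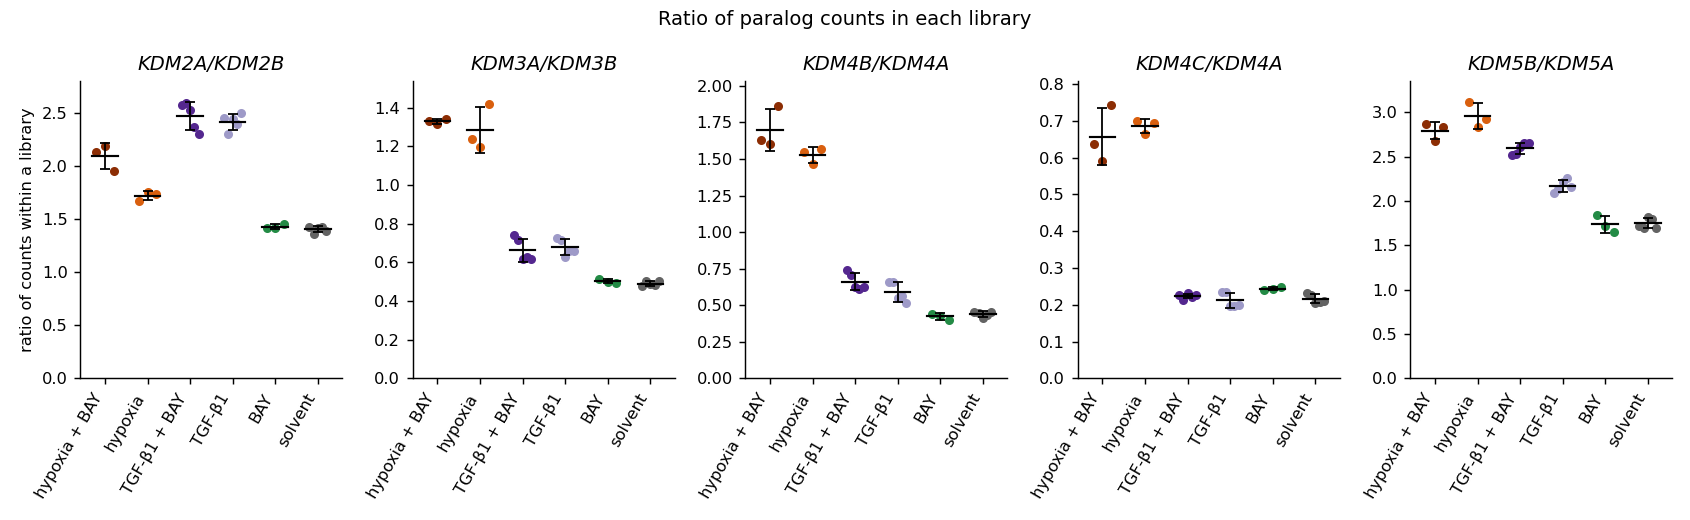
Ratio of the counts of 2 paralogs within each library (vertical axis, from 0) by group, 1 point per library, with the mean and SD as bars. The KDM3A/KDM3B, KDM4B/KDM4A and KDM4C/KDM4A ratios are highest in both hypoxic groups, while KDM2A/KDM2B is highest with TGF-β1.

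Genes that write the same marks were counted beside the demethylases. In hypoxia, 4 of 5 tested H3K9 methyltransferase genes fell and 1 rose, with a median log2 fold change of -0.55. The list holds 6 genes. EHMT2 read 0 CPM in every library under the Ensembl ID matched to its symbol, so the count and median lack it. SETDB2 averaged 12.5 ± 0.52 CPM in hypoxic cells and 23.6 ± 1.0 CPM in solvent cells (-0.94, SE 0.059, adjusted p = 1.46e-09), and SUV39H2 averaged 9.00 ± 0.55 CPM in hypoxic cells and 16.2 ± 0.95 CPM in solvent cells (-0.87, SE 0.070, adjusted p = 2.44e-08). The exception, SETDB1, named here after its value was seen, rose by 0.44 (adjusted p = 3.89e-09). Of 11 genes of H3K4 methyltransferases and their core subunits, 7 fell and 1 rose (median -0.15), the largest falls being those of SETD1B (-0.77) and SETD7 (-0.70). Of 8 tested genes of the H3K27 methyltransferase complex, 5 fell and 1 rose (median -0.25). EZH2, its usual catalytic subunit, fell by 0.57, and EZH1, the alternative catalytic subunit, rose by 0.72. H3K36 methyltransferase genes went the other way, with 4 of 6 higher and 1 lower (median 0.19). Among these SMYD2 rose by 0.58 and NSD2 fell by 0.50. These counts stand beside 29.2% higher and 31.6% lower calls over all genes and were not tested as sets.

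**Figure D3:**
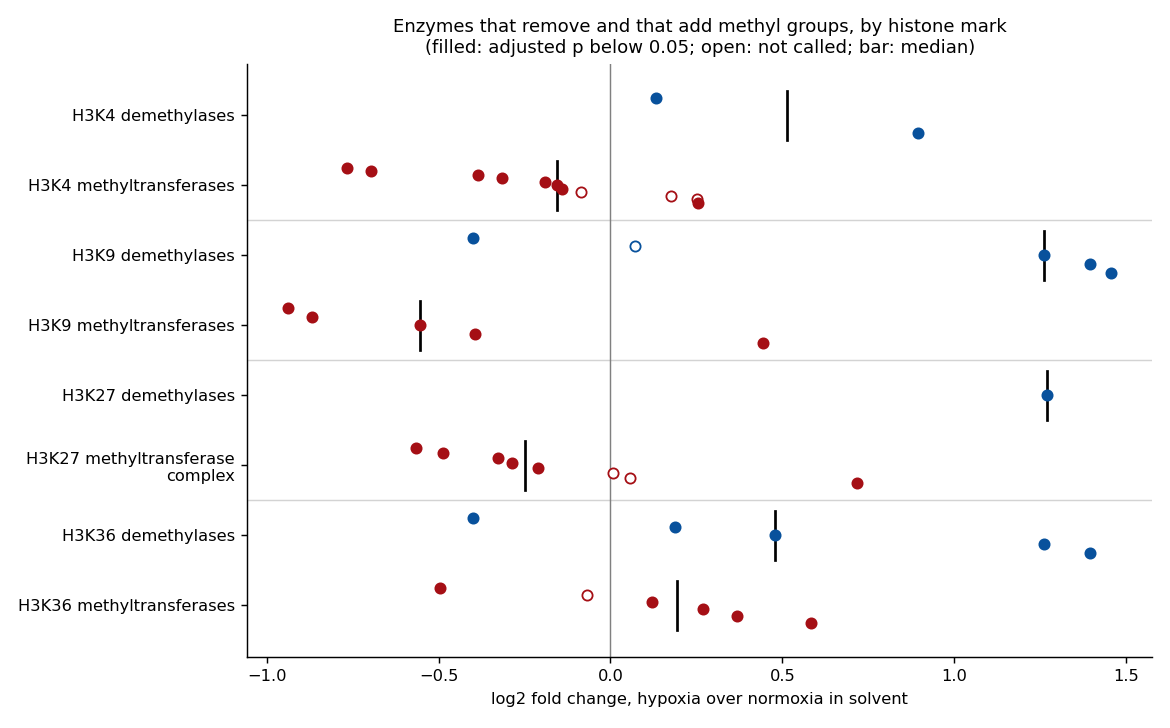
log2 fold change of hypoxia over normoxia in solvent (horizontal axis) for genes that remove (blue) and add (red) methyl groups at 4 histone lysines, with the median as a bar. KDM4A, KDM4B and KDM4C appear under both H3K9 and H3K36. For H3K9, 4 of 5 tested methyltransferase genes lie below 0 while 3 of the 5 members lie above 1. Blue points are members only. The 19 other Jumonji-C genes, of which 8 were called higher and 7 lower, are not shown.

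Other Jumonji-C genes moved in both directions in hypoxia, with 8 of 19 higher and 7 lower. HR, a hair-follicle corepressor with H3K9 demethylase activity, averaged 2.14 ± 0.24 CPM in hypoxic cells and 0.344 ± 0.18 CPM in solvent cells (2.62, SE 0.31, adjusted p = 2.31e-06). RIOX1, a ribosomal oxygenase, averaged 4.06 ± 0.59 CPM in hypoxic cells and 10.9 ± 0.38 CPM in solvent cells (-1.44, SE 0.12, adjusted p = 2.41e-08). Both flavin-dependent demethylases, which use a different chemistry, were called, KDM1A rising by 0.10 and KDM1B falling by 0.25. Among prolyl and lysyl hydroxylases, oxygen-dependent enzymes of the same superfamily, 6 of 9 rose and 2 fell (median 1.08), led by EGLN3 (3.21) and P4HA1 (2.53). Of 12 genes of nucleic acid demethylases and their relatives, 8 rose and 2 fell, with ALKBH5 at 0.75 and TET1 at 0.62. Of 17 genes of 2-oxoglutarate, succinate and fumarate metabolism, 10 fell and 3 rose (median -0.22), with the largest falls in GOT2 (-1.18), a mitochondrial aminotransferase, and IDH3A (-1.04), a subunit of an isocitrate dehydrogenase that makes 2-oxoglutarate. Among 9 genes of the KDM2B complex, 4 rose and 3 fell, BCORL1 (0.53) and BCOR (0.41) having the largest changes. Among 8 partners of the KDM5 enzymes, 3 rose and 3 fell, and SAP30, a subunit of the SIN3 complex, rose by 1.01 while PHF12 fell by 0.28.

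BAY in normoxia lowered 4 of the 10 demethylases and raised none, against 20.6% higher and 23.3% lower of all genes tested. Fibroblast markers summed to 161 to 168 CPM with BAY, against 107 to 132 CPM in solvent, and podocyte markers to 101 to 106 CPM with BAY, against 67.9 to 89.0 CPM in solvent. Their part in the demethylase values was not tested. KDM4B stood at 32.5, 32.3 and 30.5 CPM with BAY, against 39.8, 39.5, 35.5, 35.97 and 40.5 CPM in solvent (-0.26, SE 0.040, adjusted p = 7.43e-05). KDM4A stood at 73.4, 75.3 and 76.2 CPM with BAY, below every solvent library (-0.20, SE 0.041, adjusted p = 0.000855). KDM2B (-0.20, adjusted p = 0.00024) and KDM2A (-0.18, adjusted p = 0.000532) also fell without overlap between the groups. KDM3A, KDM3B, KDM4C, KDM5A, KDM5B and KDM6B had log2 values between -0.06 and 0.07 and were not called. The median absolute log2 fold change was 0.065 over the 10 genes and 0.24 over all genes. Both flavin-dependent genes fell with BAY in normoxia, KDM1B to 15.1 ± 0.87 CPM with BAY, against 25.2 ± 2.8 CPM in solvent (-0.73, SE 0.081, adjusted p = 2.66e-06), and KDM1A by 0.31. Of 19 other Jumonji-C genes, 3 rose and 2 fell, with RIOX2 (-0.51) and JMJD4 (-0.44) changing most.

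BAY in hypoxia raised 3 and lowered 3 of the 10 genes, against 16.5% higher and 21.4% lower of all genes tested. Podocyte markers summed to 1223 to 1350.2 CPM in hypoxia with BAY, against 449 to 482 CPM in hypoxia with solvent. Fibroblast markers summed to 224 to 242 CPM in hypoxia with BAY, against 124 to 130 CPM in hypoxia with solvent. The part of these markers in the demethylase values was not tested. KDM6B stood at 223, 209 and 226 CPM in hypoxia with BAY, against 174, 167 and 159 CPM in hypoxia with solvent (0.39, SE 0.051, adjusted p = 1.98e-05). KDM4C fell to 38.4, 35.4 and 39.6 CPM with BAY, against 46.4, 46.2 and 44.2 CPM in solvent (-0.28, SE 0.058, adjusted p = 0.00126). Its rise in hypoxia was 1.26 in solvent and 1.01 with BAY, and the interaction given below tests that difference. KDM2B stood at 57.0, 55.6 and 58.9 CPM with BAY, against 70.9, 69.2 and 65.9 CPM in solvent (-0.27, SE 0.039, adjusted p = 4.3e-05). KDM4A fell by 0.21 (SE 0.046, adjusted p = 0.00163). KDM5A (0.16, adjusted p = 0.0202) and KDM3A (0.11, adjusted p = 0.0334) were called higher, but each call was lost on leaving out any of 4 of the 6 libraries. For KDM5A these were replicates 1 and 2 with BAY and 1 and 3 in solvent (0.14 to 0.16, adjusted p = 0.0545 to 0.0823), and for KDM3A replicates 1 and 3 with BAY and 1 and 2 in solvent (0.08 to 0.11, adjusted p = 0.0599 to 0.174). With the replicate number as a block KDM3A was no longer called (0.11, adjusted p = 0.0623). With total counts both calls were lost (KDM5A 0.11, adjusted p = 0.0967, and KDM3A 0.06, adjusted p = 0.205) and KDM4B was called lower (-0.12, adjusted p = 0.024). Among the other Jumonji-C genes 4 of 19 rose and 5 fell, with HR at -1.08 and RIOX1 at -0.85.

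The oxygen by BAY interaction, which tests whether BAY acted differently in hypoxia and in normoxia, was called for 3 genes higher and 1 lower, against 8.83% higher and 7.92% lower of all genes. KDM6B had the largest difference of the 4, at 0.32 (SE 0.069, adjusted p = 0.00464), from a BAY effect of 0.39 in hypoxia and of 0.07 in normoxia. KDM2A had an interaction of 0.18 (adjusted p = 0.0205), lost without hypoxic BAY replicate 1 or 2 (0.17 without either, adjusted p = 0.0588 and 0.0526). KDM4B had an interaction of 0.19 (adjusted p = 0.0328), and its call was lost on leaving out any library other than BAY replicate 1, solvent replicate 3 or 4 or hypoxic BAY replicate 2, which left values of 0.17 to 0.24 over all 14 omissions. KDM4C had an interaction of -0.25 (adjusted p = 0.0415), and its call was lost on leaving out any library other than solvent replicate 1 or 2, hypoxic BAY replicate 3 or hypoxic solvent replicate 3, with values of -0.29 to -0.19 over the 14 omissions. Both moved with the solvent libraries used as controls. KDM4B was at 0.28 with subset 1 (adjusted p = 0.000573) and at 0.13 with subset 2 (adjusted p = 0.155). KDM4C was at -0.16 with subset 1 (adjusted p = 0.12) and at -0.33 with subset 2 (adjusted p = 0.00808). KDM3A (0.20), KDM3B (0.17) and KDM5A (0.22) were called with subset 1 and not with subset 2. With total counts KDM2A (0.10, adjusted p = 0.224) and KDM4B (0.11, adjusted p = 0.163) lost their calls.

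TGF-β1 raised 5 of the 10 demethylases and lowered 4, against 29.5% higher and 32.5% lower of the 21639 genes tested, with no 2-fold change among them. KDM6B changed most, at 132, 129, 121, 124 and 124 CPM with TGF-β1, against 66.4, 68.2, 71.6, 69.8 and 65.4 CPM in solvent (0.83, SE 0.037, adjusted p = 7.53e-13). KDM2A stood at 119, 115, 114, 116 and 116 CPM with TGF-β1, against 81.8 to 86.0 CPM in solvent (0.42, SE 0.031, adjusted p = 1.26e-09). KDM5B stood at 167 to 175 CPM with TGF-β1, against 135 to 143 CPM in solvent (0.25, SE 0.027, adjusted p = 1.43e-07). None of these 3 genes overlapped between the groups. KDM2B went the other way from KDM2A, at 46.3 to 49.8 CPM with TGF-β1, against 58.2 to 62.3 CPM in solvent (-0.37, SE 0.028, adjusted p = 1.38e-09). KDM3B (-0.26, adjusted p = 1.48e-07) and KDM4A (-0.20, adjusted p = 6.03e-06) fell as well, and KDM5A was not called (-0.06, adjusted p = 0.206), though it was with total counts (-0.19, adjusted p = 9.27e-05). Fibroblast markers moved with TGF-β1, summing to 292 to 304 CPM with it, against 107 to 132 CPM in solvent. Within that list COL3A1 stayed at or below 0.0646 CPM in all libraries and COL1A1 averaged 227 ± 7.5 CPM with TGF-β1 and 36.04 ± 2.2 CPM in solvent (SD, n = 5 each). The part of these markers in the demethylase values was not tested.

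**Figure D4:**
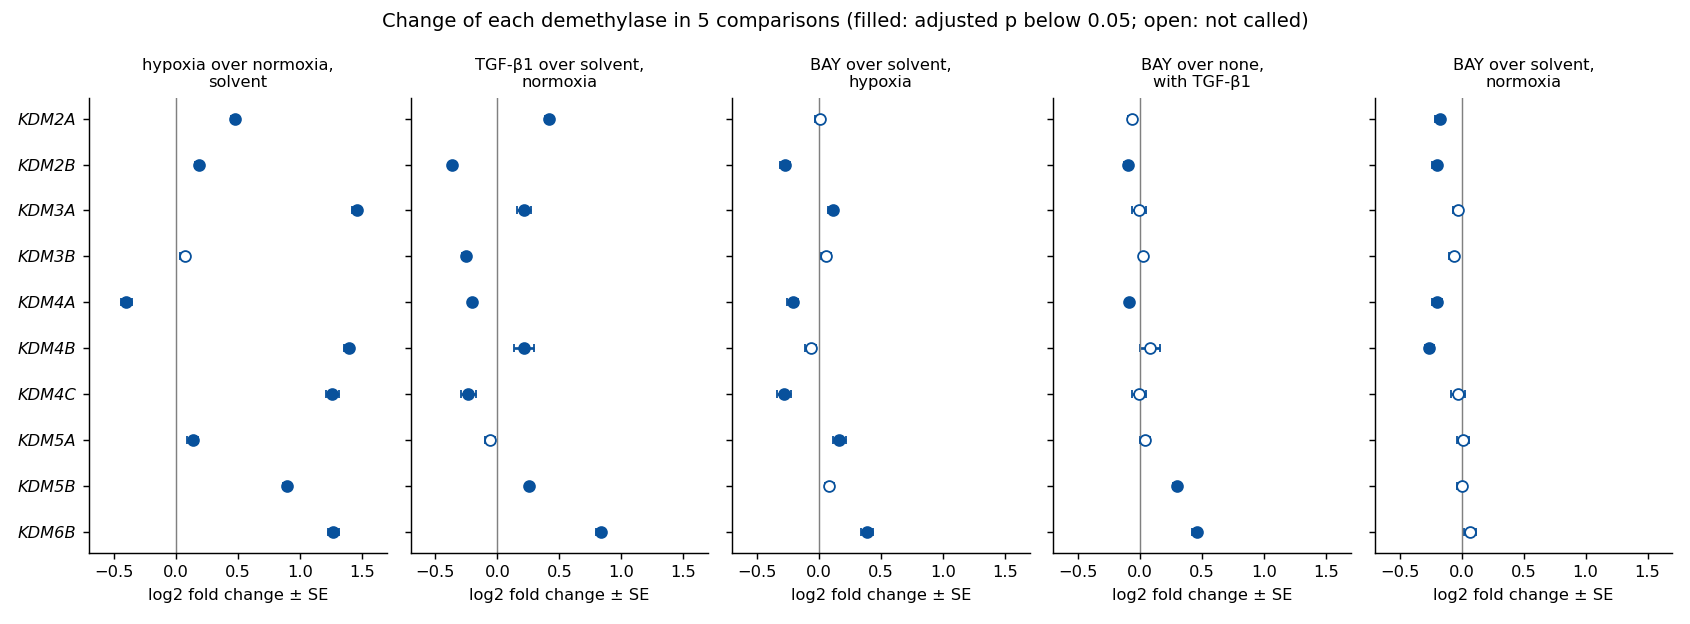
log2 fold change with its SE (horizontal axis) of each demethylase in 5 comparisons. Filled points passed an adjusted p of 0.05. KDM3A, KDM4B, KDM4C and KDM6B lie above 1 in hypoxia, KDM6B is highest with TGF-β1, and KDM4A lies below 0 in all 5 panels.

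KDM3A, KDM4B, KDM4C and KDM6B depended on the library subset in the TGF-β1 experiment. KDM4B stood at 51.9 and 51.9 CPM with TGF-β1 in subset 1 and at 42.2, 43.6 and 40.8 CPM in subset 2, against 39.8, 39.5 and 40.5 CPM in solvent in subset 1 and 35.5 and 35.97 CPM in subset 2. Pooled, KDM4B rose by 0.22 (SE 0.080, adjusted p = 0.0263), and the call was lost without solvent replicate 3 or 4 or TGF-β1 replicate 1 or 2 (0.17 to 0.19, adjusted p = 0.0628 to 0.0772). Within subset 1 the KDM4B change was 0.35, within subset 2 it was 0.21, and with the subset as a block it was 0.26. The subsets were drawn from the spread of these same libraries. Fits by subset therefore have a narrower spread by construction, and their calls add no support to the pooled one. KDM3A rose by 0.21 pooled (SE 0.057, adjusted p = 0.00355), and by 0.31 and 0.21 within subsets 1 and 2. It stood at 100 and 99.4 CPM with TGF-β1 in subset 1 and at 87.5, 89.6 and 88.6 CPM in subset 2, against 73.7 to 80.2 CPM in all solvent libraries. KDM4C fell by 0.24 pooled (SE 0.059, adjusted p = 0.00203) although the groups overlap, and by 0.13 and 0.21 within the subsets. KDM6B rose by 0.83 pooled, and by 0.94 and 0.77 within subsets 1 and 2. With TGF-β1 it stood at 129 to 132 CPM in subset 1 and at 121 to 124 CPM in subset 2. In solvent it stood at 65.4 to 68.2 CPM in subset 1 and at 69.8 to 71.6 CPM in subset 2. The calls of KDM3A and KDM4B were lost with scaling by total counts (0.08, adjusted p = 0.124, and 0.09, adjusted p = 0.266).

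**Figure D5:**
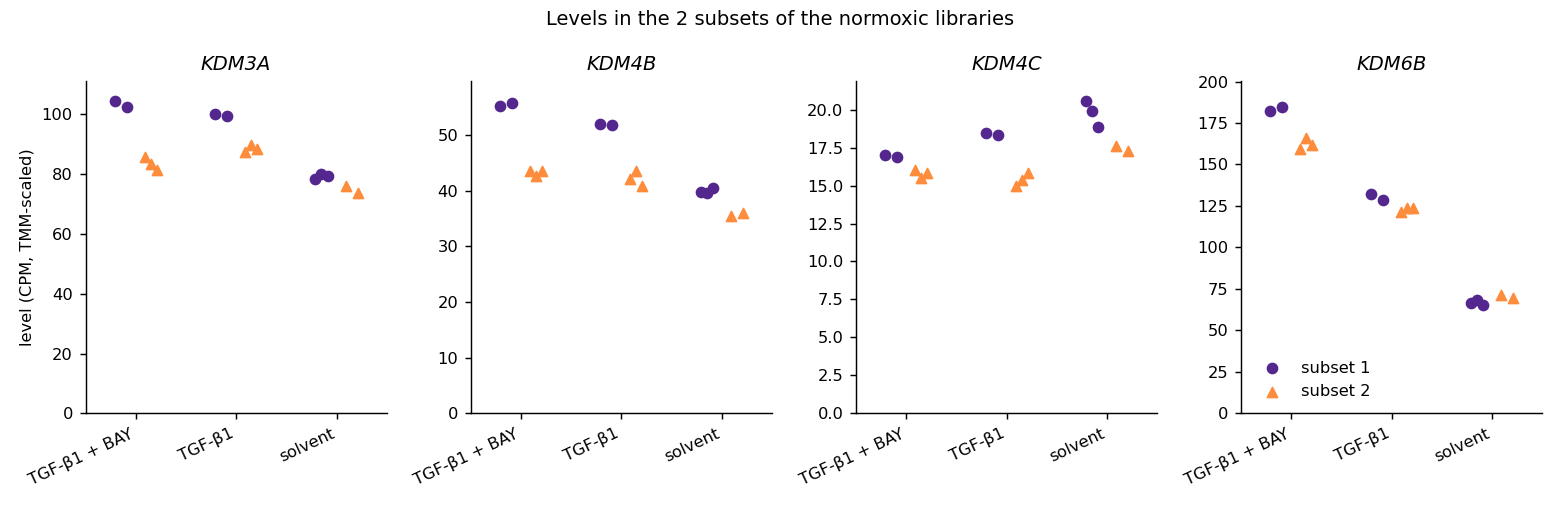
Level in CPM (vertical axis, from 0) of 4 demethylases in the 3 normoxic groups of 5 libraries, 1 point per library, circles for subset 1 and triangles for subset 2. KDM3A, KDM4B and KDM4C are higher in subset 1 in each group. KDM6B is lower in subset 1 in solvent and higher in subset 1 with TGF-β1, with or without BAY.

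Paralog ratios shifted with TGF-β1 too. The KDM2A to KDM2B ratio was 2.42 ± 0.077 with TGF-β1 and 1.41 ± 0.029 in solvent (SD, n = 5 each), the KDM3A to KDM3B ratio was 0.679 ± 0.042 with TGF-β1 and 0.491 ± 0.012 in solvent, and the KDM4B to KDM4A ratio was 0.590 ± 0.068 with TGF-β1 and 0.441 ± 0.017 in solvent. The KDM5B to KDM5A ratio was 2.17 ± 0.065 with TGF-β1 and 1.75 ± 0.056 in solvent. These 4 ratios did not overlap between the groups (exact permutation p = 0.00794 each, the smallest that 5 against 5 allow, adjusted p = 0.0418). The KDM4C to KDM4A ratio overlapped, at 0.212 ± 0.020 with TGF-β1 and 0.217 ± 0.012 in solvent (exact permutation p = 0.611).

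Of the 19 other Jumonji-C genes, 10 rose with TGF-β1 and 4 fell. HR averaged 6.51 ± 2.3 CPM with TGF-β1 and 0.344 ± 0.18 CPM in solvent (4.18, SE 0.35, adjusted p = 9.23e-09). JARID2, a Jumonji protein without demethylase activity that binds the H3K27 methyltransferase complex, averaged 78.5 ± 2.7 CPM with TGF-β1 and 25.2 ± 0.50 CPM in solvent (1.59, SE 0.034, adjusted p = 1.94e-17). Of 8 KDM5 partners, 6 rose and none fell, with HDAC1 at 0.70 and MORF4L1 at 0.49. Of 9 genes of the KDM2B complex, 4 rose and 2 fell, with PCGF1 at 0.76 and SKP1 at 0.48. Of 5 tested H3K9 methyltransferase genes 2 rose and 2 fell, among them SETDB2 (-1.70) and SUV39H1 (0.49). KDM1A rose by 0.48. Of the hydroxylases 7 of 9 rose, with P4HA3 at 3.53 and P4HA2 at 2.26. Of the 2-oxoglutarate, succinate and fumarate genes 7 of 17 rose and 6 fell, with GOT1 at -0.81 and SDHA at 0.76.

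BAY added to TGF-β1 raised 2 of the 10 genes and lowered 2, against 13.9% higher and 15.6% lower of all genes tested. Fibroblast markers summed to 261 to 287 CPM with both agents, against 292 to 304 CPM with TGF-β1 alone, and their part was not tested. KDM6B stood at 182, 185, 159, 166 and 162 CPM with TGF-β1 and BAY, against 132, 129, 121, 124 and 124 CPM with TGF-β1 alone (0.46, SE 0.037, adjusted p = 3.21e-08). KDM5B stood at 211, 214, 212, 205 and 197 CPM with both agents, against 167, 171, 172, 175 and 172 CPM with TGF-β1 alone (0.29, SE 0.027, adjusted p = 1.46e-07). Neither gene overlapped between the groups. Within subsets 1 and 2 the changes were 0.49 and 0.42 for KDM6B and 0.33 and 0.26 for KDM5B. KDM2B fell by 0.10 (SE 0.028, adjusted p = 0.0107). KDM4A fell by 0.09 (adjusted p = 0.03), a call that was lost without TGF-β1 replicate 4 or 5 or replicate 3, 4 or 5 with both agents (-0.07 to -0.09, adjusted p = 0.056 to 0.13), and its change was -0.03 within subset 1 and -0.14 within subset 2. Of 19 other Jumonji-C genes 8 rose and 3 fell, with KDM7A at 0.67 and JARID2 at 0.66.

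Against BAY alone, TGF-β1 with BAY raised 5 of the 10 genes and lowered 3, against 32.2% higher and 31.8% lower of all genes. KDM6B stood at 159 to 185 CPM with both agents and at 68.3 to 74.4 CPM with BAY alone (1.24, SE 0.045, adjusted p = 3.03e-14). KDM4B (0.58), KDM5B (0.57), KDM2A (0.54) and KDM3A (0.25) also rose, while KDM2B (-0.25), KDM4C (-0.20) and KDM3B (-0.15) fell. The KDM4C call was lost without BAY replicate 3 (-0.17, adjusted p = 0.08). With total counts KDM3A lost its call (0.05, adjusted p = 0.414), while KDM4A (-0.27, adjusted p = 3.8e-08) and KDM5A (-0.22, adjusted p = 0.000108) were called lower. The TGF-β1 by BAY interaction was called for 4 genes, all positive, against 13.7% positive and 7.08% negative of all genes. KDM6B (0.41, SE 0.057, adjusted p = 4.16e-05) and KDM5B (0.31, SE 0.041, adjusted p = 2.26e-05) were the 2 whose call held on leaving out any 1 of the 18 libraries. KDM4A (0.13, adjusted p = 0.0405) kept its call without BAY replicate 3, solvent replicate 3 or 4, TGF-β1 replicate 5 or replicate 3, 4 or 5 with both agents, and lost it for the other 11 of the 18, with values of 0.11 to 0.15. With total counts the KDM4A interaction was at 0.06 (adjusted p = 0.247). It was at 0.18 in the fit of subset 1 and at 0.04 in that of subset 2. The libraries given BAY alone have no subset and entered both fits, so these are not values within a subset. KDM4B (0.36, adjusted p = 0.048) kept its call without solvent replicate 3 or 4 or TGF-β1 replicate 1 or 2. It also kept it without replicate 3, 4 or 5 with both agents, and lost it for the other 11, with values of 0.31 to 0.40. The KDM4B call was lost as well with RLE scaling (0.35, adjusted p = 0.0673), without the filter (0.35, adjusted p = 0.107) and with limma voom (0.36). In the fits of subsets 1 and 2 the KDM4B interaction was at 0.40 and 0.24.

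By group mean, KDM6B was ordered hypoxia with BAY (220 CPM), TGF-β1 with BAY (171), hypoxia (167), TGF-β1 (126), BAY (71.1) and solvent (68.3). TGF-β1 with BAY and hypoxia overlapped, as did BAY and solvent. KDM5B followed the order hypoxia with BAY (278 CPM), hypoxia (260), TGF-β1 with BAY (208), TGF-β1 (171), solvent (139) and BAY (138), with overlap for the last pair. The KDM5B difference between the hypoxic groups was not called (0.08, SE 0.037, adjusted p = 0.0919). KDM3A was at 234 CPM in hypoxia with BAY and 215 CPM in hypoxia, and all 4 normoxic groups lay between 75.4 and 93.0 CPM. All group means of KDM5A lay between 78.8 and 99.4 CPM.

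The genes most like each member over the 24 libraries were taken by the Pearson correlation of log2(CPM + 0.5) among 11071 genes with a mean of at least 5 CPM. They are a description, since the libraries share treatments. The nearest to KDM3A was BNIP3L, a mitophagy receptor (r = 0.994), and the nearest to KDM4C was PLIN2, a lipid droplet protein (r = 0.992). KDM4B was nearest to ZDHHC9 (r = 0.990) and SLC2A3, a glucose transporter (r = 0.990). KDM2A was nearest to SLC16A3, a lactate exporter (r = 0.984), KDM6B to BPNT2 (r = 0.982), KDM4A to ZNF664 (r = 0.978), KDM2B to JAK3 (r = 0.976), KDM5B to AGPAT4 (r = 0.974) and KDM3B to GRIN2B (r = 0.971). KDM5A had the lowest best match, NFRKB (r = 0.937).

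By annotation in GENCODE 29 on GRCh38, 14 genes overlap 6 of the members, and 3 of these reached 1 CPM in a library. All 3 lie on the opposite strand. RNF34 overlaps KDM2B and ranged from 13.8 to 32.2 CPM, CCDC77 overlaps KDM5A and ranged from 14.5 to 33.7 CPM, and KDM4A-AS1 ranged from 0.603 to 2.09 CPM. Whether the counting used strand is not given in the sources used here, so a share of the KDM2B, KDM5A and KDM4A counts may belong to these genes. The processed pseudogene KDM3AP1 was at 0 in every library.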

How the data were processed

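The members and gene lists were chosen with earlier results of these data known. Poly(A) RNA from 24 HK-2 cultures was sequenced. What the authors deposited is a single matrix of estimated counts by Ensembl ID. Of its values above 0, 48.6% were not whole. Per the submitters' processing notes, Salmon, DESeq2 and GRCh38 (hg38) were used. For versions, annotation release and strand the answer is the same: not given in the sources used here. Because Salmon apportions ambiguous reads among similar transcripts, paralogs can trade reads.

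All estimated counts were first rounded. Symbols came by Ensembl ID for 58919 of 65180 IDs. One model per experiment was used, with 1 mean per group: 14 libraries for hypoxia and 18 for TGF-β1, of which 8 entered both. edgeR 4.0.16 (R 4.3.3) was run with TMM scaling, filterByExpr and the robust quasi-likelihood test in 9 comparisons, with calls at an adjusted p below 0.05. The approximate SE was taken from the log2 fold change and the F statistic, as their ratio with F under a root. The procedure was tested on simulated counts. List genes named are at most the 2 called genes with the largest change per list. All 39 within-group pairs of libraries differed by more than sampling noise (chi-square per degree of freedom 5.46 to 48.1), so each counted as 1 replicate. Replicate numbers pair samples where every same-numbered pair's deviations from the group means correlate above 0.1. This held between the hypoxic groups (0.144 to 0.233) and between the TGF-β1 groups (0.329 to 0.622), from the data and not the labels, and in no comparison with the normoxic solvent cells or those given BAY alone. The sample titles call the libraries biological replicates but do not say what separated them. The p-values therefore reflect only how far these samples spread, which may be technical in part. Alternatives were RLE scaling, DESeq2 1.42.0, limma 3.58.1 (voom), no filter, 1 fit of all libraries, a replicate block and leaving out each library. Total-count scaling, the library subsets and the paralog ratios were added after seeing the data. Because the subsets come from the spread of the same counts, calls and adjusted p-values of fits by subset are a description. Libraries without a subset, those given BAY alone and the hypoxic ones, entered the fits of both subsets.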

Additional observations from a re-analysis of the deposited data

Results flagged for a closer look

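An interaction of BAY with oxygen or with TGF-β1 was called for 6 of the 10 demethylases in edgeR's quasi-likelihood test, adjusted over all genes. Over all genes 8.83% were called higher and 7.92% lower for oxygen by BAY, and 13.7% higher and 7.08% lower for TGF-β1 by BAY. The calls of KDM2A, KDM4A, KDM4B and KDM4C were lost in some fits that left out 1 library, in 10 of 14 for KDM4B and KDM4C with oxygen and in 11 of 18 for KDM4A and KDM4B with TGF-β1. For oxygen by BAY the log2 interactions were 0.32 for KDM6B (0.3231), 0.18 for KDM2A (0.1847), 0.19 for KDM4B (0.1950) and -0.25 for KDM4C (-0.2504). For TGF-β1 by BAY they were 0.41 for KDM6B (0.4071), 0.31 for KDM5B (0.3129), 0.36 for KDM4B (0.3584) and 0.13 for KDM4A (0.1326).

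KDM6B is the member with the same sign in both interactions and a call that held in every fit that left out 1 library, between 0.29 and 0.38 for oxygen by BAY and between 0.38 and 0.44 for TGF-β1 by BAY. In normoxia without TGF-β1, BAY left KDM6B at 70.5, 74.4 and 68.3 CPM, against 65.4 to 71.6 CPM in solvent. KDM5B held in the TGF-β1 interaction (0.29 to 0.34) and was not called for oxygen by BAY (0.08, adjusted p = 0.277). Whether the KDM5B interactions with oxygen and with TGF-β1 differ from each other was not tested, and both use the same normoxic libraries.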

How the results depend on the processing

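With 1 library left out, 778 gene values kept direction and call, 64 lost the call, 10 gained one and 28 changed sign. The number of members called then ranged from 8 to 10 in hypoxia, 9 to 10 in hypoxia with BAY, 4 to 4 for BAY in normoxia, 4 to 5 for BAY in hypoxia, 8 to 9 for TGF-β1, 3 to 5 for BAY on TGF-β1, 7 to 9 for TGF-β1 with BAY, 1 to 4 for oxygen by BAY and 2 to 6 for TGF-β1 by BAY. The 4 oxygen by BAY calls became 2 in 1 fit of all libraries, 2 with total counts, 1 without the filter and 2 with a replicate block. They became 6 with solvent libraries of subset 1 and 3 with those of subset 2. The 4 TGF-β1 by BAY calls became 2 with RLE scaling, 2 without the filter and 7 with a replicate block. The median of the group mean levels was 86.8 CPM by total count and 82.0 CPM by TMM. The causes were not tested.

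Outside BAY in hypoxia and BAY on TGF-β1, no comparison had every same-numbered pair correlating above 0.1, and the lowest correlation of deviations was -0.338. Between solvent and each TGF-β1 group, replicates 1 to 4 did correlate above 0.1, and replicate 5 correlated negatively. Same-numbered replicates 1 to 4 of these groups lie in the same library subset, whereas replicate 5 lies in subset 1 in solvent and in subset 2 with TGF-β1. Whether the subsets account for these correlations was not tested. With the replicate block KDM5A in hypoxia was at 0.11 (adjusted p = 0.0708). In the 2 paired comparisons the block changed no call other than that of KDM3A for BAY in hypoxia.

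Changes of sign came from values near 0 and, among called values, only KDM2B in hypoxia with BAY (-0.042 with total counts). For BAY in normoxia KDM5A was -0.0093 in 1 fit of all libraries, -0.0022 with RLE and with DESeq2, -0.011 with the replicate block and -0.044 in subset 1. There KDM4C was 0.0014 with total counts and 0.066 in subset 2, KDM5B 0.030 with total counts, 0.0041 without the filter and 0.0035 in subset 2, and KDM3A 0.0057 in subset 2. For oxygen by BAY KDM4A was 0.013 in 1 fit, 0.010 with RLE and with DESeq2 and 0.042 in subset 1, and KDM5B was -0.00073 with total counts. With total counts KDM3B in hypoxia was -0.00033 and KDM2A for BAY in hypoxia -0.047. For TGF-β1 with BAY KDM5A was 0.00088 with RLE, 0.00089 with DESeq2, 0.0074 with the replicate block and 0.024 in subset 1. For TGF-β1 by BAY, KDM3A, KDM4C and KDM5A were -0.031, -0.032 and -0.024 with total counts, KDM4C was -0.034 in subset 1, and KDM3A, KDM4C and KDM5A were -0.066, -0.0045 and -0.053 in subset 2. For BAY on TGF-β1, KDM2A was 0.0057 and KDM3A 0.049 in subset 1 and KDM4C 0.057 in subset 2. KDM5A with TGF-β1 was 0.016 in subset 2. With 1 library left out, sign changes fell in ranges of -0.012 to 0.032 (KDM2A) for BAY in hypoxia, -0.042 to 0.060 (KDM5A) and -0.025 to 0.0096 (KDM5B) for BAY in normoxia, -0.056 to 0.036 (KDM3A) and -0.043 to 0.026 (KDM4C) for BAY on TGF-β1, -0.0067 to 0.089 (KDM3A) and -0.012 to 0.090 (KDM5A) for TGF-β1 by BAY, -0.073 to 0.029 (KDM5A) for TGF-β1 with BAY and -0.041 to 0.044 (KDM4A) for oxygen by BAY.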
